A study of Homo sapiens with 12 samples.

Results

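The ID genes encode inhibitors of differentiation, and all 4 of them, ID1, ID2, ID3 and ID4, were followed here on 12 arrays of human soft tissue sarcoma cells. They were taken by gene symbol from the platform annotation, which gave 9 probe sets to the family out of 54675 on the array, and 4 of the 14221 genes tested. The family was chosen by its measured log2 changes with taurolidine in each line, which differed between lines, ID2 most, so its taurolidine values are a description, and where the fits over all genes call a member this is set beside the share of all genes and supports nothing. A-204 (labelled rhabdomyosarcoma), SK-LMS-1 (leiomyosarcoma) and VA-ES-BJ (epithelioid cell sarcoma) were each left untreated, or given 50 ng/ml TRAIL, 250 µmol/l taurolidine or both agents for 6 h. Each line and treatment gave 1 array. Taurolidine, derived from the amino acid taurine, is an antimicrobial agent with toxicity to tumour cells, and TRAIL is a ligand of the death receptors. The title of the series asks about synergy of the pair.

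ID proteins have the helix-loop-helix domain with which this class of transcription factors pairs, but lack the basic region that touches DNA. By pairing with E proteins they keep tissue-restricted factors, such as MYOD1 of skeletal muscle, off their target sites, and ID2 is also known to bind proteins of the retinoblastoma family. BMP signals through SMAD proteins are a known inducer of ID1, ID2 and ID3, and ID transcripts and proteins are short-lived.

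The windows ahead of the 4 gene starts are shown because the members moved in pairs across these arrays, ID2 with ID4 and ID1 with ID3. Each is the 250 bases before the start in RefSeq on GRCh38.p14, 5′ to 3′ on the strand of the gene, with matches to the motifs searched in capitals. The windows lie at chr20:31605039-31605288 (plus strand) for ID1, chr2:8681806-8682055 (plus) for ID2, chr1:23559502-23559751 (minus) for ID3 and chr6:19837120-19837369 (plus) for ID4.
ID1: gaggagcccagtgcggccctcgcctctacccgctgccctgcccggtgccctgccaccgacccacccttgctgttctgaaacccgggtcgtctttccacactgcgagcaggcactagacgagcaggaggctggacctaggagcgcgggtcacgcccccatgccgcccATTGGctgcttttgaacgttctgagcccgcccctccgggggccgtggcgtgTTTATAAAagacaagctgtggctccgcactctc
ID2: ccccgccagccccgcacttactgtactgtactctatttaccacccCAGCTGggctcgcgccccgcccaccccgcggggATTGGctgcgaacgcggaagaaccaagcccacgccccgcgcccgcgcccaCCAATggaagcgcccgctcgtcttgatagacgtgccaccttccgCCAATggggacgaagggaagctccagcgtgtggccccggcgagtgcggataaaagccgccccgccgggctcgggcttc
ID3: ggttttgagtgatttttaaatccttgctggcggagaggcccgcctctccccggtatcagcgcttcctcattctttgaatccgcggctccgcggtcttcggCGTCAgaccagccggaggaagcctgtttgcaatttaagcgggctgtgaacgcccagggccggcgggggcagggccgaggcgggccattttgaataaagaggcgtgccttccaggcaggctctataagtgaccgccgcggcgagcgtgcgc
ID4: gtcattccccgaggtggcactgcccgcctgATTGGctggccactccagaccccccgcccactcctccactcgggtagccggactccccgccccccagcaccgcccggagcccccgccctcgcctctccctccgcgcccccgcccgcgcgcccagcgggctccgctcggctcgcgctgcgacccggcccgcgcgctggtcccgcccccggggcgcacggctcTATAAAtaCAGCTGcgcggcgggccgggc
All 6 motifs were searched on both strands. The CCAAT box (CCAAT, or ATTGG as read on the other strand) occurred 3 times in the ID2 window, once each in those of ID1 and ID4, and not in that of ID3, against at least 1 match in 32% of 35116 windows of the same length and at least 3 in 2.93%. The E-box at which E proteins bind, CANNTG, was found once in ID2 and once in ID4 and was held by 61.8% of windows. Both matches had the form CAGCTG, held by 14%. The TATA box, TATAAA, was in ID4 and, as 2 overlapping matches on opposite strands that share bases, in ID1 (10.7% of windows). The core of a cyclic AMP response element, TGACG, was in ID3 alone of the 4 (21.2%). Neither the site of BMP-regulated SMADs, GGCGCC (16.4% of windows), nor that of EGR1, the zinc finger factor described among the regulators, GCGTGGGCG (0.72%), had a match in the 4 windows. The GC content was 66% for ID1, 69.2% for ID2, 62% for ID3 and 78.8% for ID4.

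ID1 and ID3 each had 1 probe set, ID2 had 2 and ID4 had 5. A probe set entered the tests where at least 3 arrays had a signal over 136.5, the table median, which 8 of the 9 did. The exception was 1 of ID4, below that median on all 12 arrays. The probe set with the highest mean log2 signal stood for each gene. Signal is the MAS5 value of a probe set, on a linear scale with the same trimmed mean on every array, and signals of different probe sets are not compared. Changes are differences in log2(signal + 11.8). These are bulk samples, in which fewer cells of a kind and less RNA per cell cannot be told apart.

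Marker genes followed the labelled origins only in part. MYOD1, MYOG and MYF5, which define skeletal muscle, had signals of 28.6, 10.2 and 5.32 in untreated A-204. Without treatment SMARCB1, typically lost in epithelioid sarcoma, was lowest for VA-ES-BJ (152), followed by A-204 (1235), with 3530 for SK-LMS-1. KRT8, KRT18 and KRT19 were highest in VA-ES-BJ (16153, 18904 and 16189), but MUC1 was lowest there (292) and EPCAM was at 130 against 1915 in A-204. TNNT1 of skeletal muscle was highest in A-204 (5677), with 4133 in VA-ES-BJ and 1787 in SK-LMS-1. Of the smooth muscle genes TAGLN, SMTN, CNN1 and CALD1 were highest in SK-LMS-1 (8946, 11333, 661 and 29742). MYH11 was highest there too, but near the table median (137), and DES was at 127. ACTA2 was highest in VA-ES-BJ (4980, against 1686 in SK-LMS-1 and 1667 in A-204). TNNT1, of 3 tested skeletal muscle markers, and KRT18 and MUC1, of 7 epithelioid ones, rose with taurolidine (0.56, 0.63 and 0.52) past the threshold. The threshold is an adjusted p under 0.05 in limma's fit, which 7.73% of all genes passed upward and 19.2% in either direction. None of the 7 smooth muscle markers passed it, nor did the 2 of 7 leukocyte, 4 of 7 endothelial and 1 of 6 erythroid markers that were tested. Their summed signal ranged from 304 to 1660 without taurolidine and from 441 to 2169 with it for leukocyte genes, from 918 to 3239 and from 1221 to 3287 for endothelial genes, and from 151 to 224 and from 113 to 378 for erythroid genes. PTPRC, the pan-leukocyte marker, did not exceed 125 on any array by its brightest probe set. Array medians ran from 123.2 to 155.4. Poly-A control transcripts, added to the RNA before labelling, were 0.59 higher on the log2 scale on taurolidine arrays on average over 27 probe sets (0.73 for A-204, 0.52 for SK-LMS-1, 0.54 for VA-ES-BJ). For the ID genes, values with arrays scaled to them are given where they turn the direction of a taurolidine change. Such scaling moved the median change of all genes from 0 to -0.62. Small rises of other genes turned with it, such as TCF3 (0.16 to -0.47) and CDKN1A (0.38 to -0.25). Scaled values of the marker genes are not given, and the marker rises above are near the size of the poly-A difference.

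Without taurolidine, the lines held very different amounts of ID2 and ID4 and closer amounts of ID1 and ID3. The signal of ID2 was 20866 in untreated VA-ES-BJ, 11225 for A-204 and 787 for SK-LMS-1, which put the highest line 26.5-fold over the lowest. With TRAIL alone it was 23546, 12151 and 730 in the same order. The untreated and TRAIL arrays of a line lay close together, at 14.44 ± 0.12 (SD, n = 2 arrays, log2) for VA-ES-BJ, 13.51 ± 0.08 for A-204 and 9.59 ± 0.08 for SK-LMS-1, so the order of all 3 lines was clear of that spread.

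ID4 had another order. Its signal was 4460 in untreated A-204, 683 in VA-ES-BJ and 130 in SK-LMS-1, and 4494, 632 and 54.5 with TRAIL. SK-LMS-1 was thus again lowest, under the median of the table on both arrays, so no fold against it is given. The log2 means over the same arrays were 12.13 ± 0.01, 9.39 ± 0.08 and 6.60 ± 0.78, and no ranges overlapped.

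ID1 and ID3 were bright in every line. ID1 had signals of 31743 in untreated A-204, 15112 for SK-LMS-1 and 14400 for VA-ES-BJ. A-204 stood 2.2-fold above the lowest line, whereas SK-LMS-1 and VA-ES-BJ, at 13.95 ± 0.09 and 13.95 ± 0.19 on the log2 scale over the untreated and TRAIL arrays, did not differ beyond their spread. ID3 had signals of 33384 in untreated A-204, 17538 in VA-ES-BJ and 13041 in SK-LMS-1, and the 2.56-fold range was nearly that of ID1. The log2 means were 15.03 ± 0.01, 14.40 ± 0.43 and 13.66 ± 0.01, with the wide spread in VA-ES-BJ coming from its TRAIL array at 26649.

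**Figure D1:**
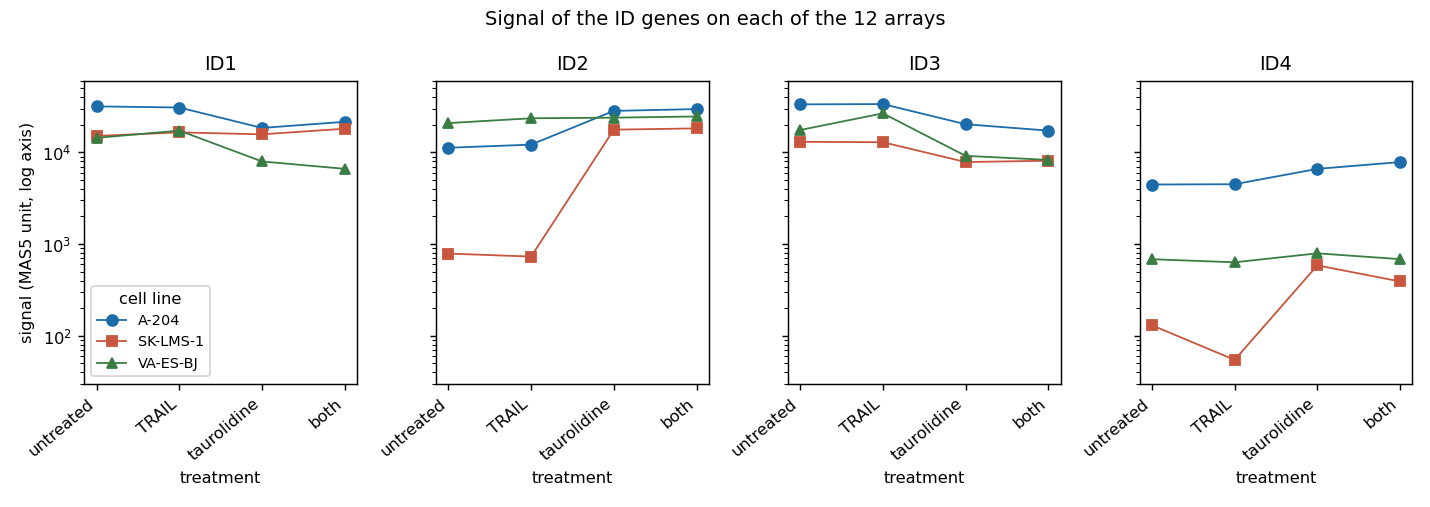
Signal of the probe set that stands for each ID gene (MAS5 unit, log axis) by treatment, with 1 point per array and 1 line of points per cell line. ID2 in SK-LMS-1 is at 787 and 730 without taurolidine and at 17684 and 18260 with it, while the ID3 points of every line are lower with taurolidine.

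ID2, the member for which the family was chosen, was far higher with taurolidine in SK-LMS-1, moderately higher in A-204 and nearly level in VA-ES-BJ. In SK-LMS-1 its signal was 787 in untreated cells and 730 with TRAIL, against 17684 with taurolidine and 18260 with both agents. Both taurolidine arrays were above both others by a wide margin, a change of 4.47 (22.1-fold) without TRAIL and 4.62 (24.6-fold) with it. Ranked by change among the 14221 genes in that line, ID2 was number 7 from the top without TRAIL and number 5 with it. A change of at least 2-fold upward without TRAIL was seen in 4.33% of genes in SK-LMS-1.

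In A-204 the signal of ID2 was 11225 and 12151 without taurolidine and 28335 and 29660 with it. The groups did not overlap, and the changes were 1.33 (2.52-fold) and 1.29 (2.44-fold), where 3.83% of genes were at least 2-fold higher in the comparison without TRAIL. In VA-ES-BJ, which held the most ID2 to begin with, the signal was 20866 and 23546 without taurolidine and 23910 and 24635 with it. The taurolidine arrays were still the higher ones, by 0.20 and 0.07, but this direction turned to -0.04 under quantile normalisation and to -0.40 when arrays were scaled to the poly-A controls (means of the comparisons with and without TRAIL).

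The line with the least ID2 had the largest change, and the lines came close together. The highest line was 26.5-fold over the lowest when untreated and 32.3-fold with TRAIL, but 1.6-fold with taurolidine and 1.62-fold with both agents. The order also changed. A-204 was highest with taurolidine, followed by VA-ES-BJ and SK-LMS-1, and the same order held with both agents. The spread between lines of ID1 (2.2-fold untreated, 2.32-fold with taurolidine) and ID3 (2.56-fold and 2.58-fold) was nearly the same for that pair. In the presence of TRAIL it went from 1.87-fold to 3.26-fold for ID1 and from 2.61-fold to 2.13-fold for ID3.

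The second ID2 probe set, 201566_x_at, showed the same pattern at lower signals. In SK-LMS-1 it read 180 untreated, 171 with TRAIL, 7301 with taurolidine and 8518 with both, changes of 5.25 and 5.54. In A-204 it read 4963 and 4318 without taurolidine and 12446 and 13094 with it. In VA-ES-BJ the 4 arrays lay between 10801 and 11191, with changes of 0.05 and -0.02, so that no direction was shared by the probe sets there. A probe set annotated to ID2 together with its related locus ID2B gave 61.7 and 82.8 without taurolidine in SK-LMS-1 and 856 and 1092 with it. Transcripts of that locus and of ID2 cannot be separated by it. ID2-AS1, the antisense gene beside ID2, was followed by 2 probe sets, of which the brighter read 231 untreated and 103 with TRAIL in SK-LMS-1, against 202 with taurolidine and 242 with both. Its arrays with and without taurolidine overlapped in that line, unlike those of ID2. In A-204 it was higher with taurolidine, as ID2 was, at 161 and 180 without and 285 and 307 with it.

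ID4 had the pattern of ID2 in smaller steps. In SK-LMS-1 its signal was 130 and 54.5 without taurolidine and 585 and 391 with it. The groups did not overlap, and the changes were 2.07 without TRAIL and 2.60 with it, number 97 and number 50 from the top among all genes in that line. Both baseline signals lay under the table median, and the mean change of 2.34 fell to 1.95 with a constant of 50 and to 1.33 with the mean of the ID4 probe sets. In A-204 the signals were 4460 and 4494 without taurolidine and 6607 and 7842 with it, changes of 0.57 and 0.80. In VA-ES-BJ they were 683 and 632 without taurolidine and 792 and 684 with it, changes of 0.21 and 0.11. Scaling to the poly-A controls turned the sign in A-204 (to -0.04) and in VA-ES-BJ (to -0.37), but not in SK-LMS-1.

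The other ID4 probe sets were dimmer and did not all follow. 209293_x_at was higher with taurolidine in each line, with signals in SK-LMS-1 of 132 untreated and 234 with TRAIL against 366 with taurolidine and 455 with both. 226933_s_at was higher in A-204, at 241 and 331 without taurolidine and 890 and 917 with it, and it went both ways in VA-ES-BJ (changes of -0.17 and 0.81). 209292_at had no shared direction in A-204 or SK-LMS-1 and was lower by small amounts in VA-ES-BJ (-0.32 and -0.11). 229386_at, the probe set that was not tested, did not exceed 127 on any array.

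ID3 was lower with taurolidine in all 3 lines. In A-204 its signal was 33384 and 33647 without taurolidine and 20267 and 17275 with it. In SK-LMS-1 it was 13041 and 12910 without taurolidine and 7843 and 8110 with it, and in VA-ES-BJ 17538 and 26649 without and 9161 and 8278 with it. The groups did not overlap in any line. The changes without TRAIL were nearly alike, at -0.72, -0.73 and -0.94 in that order. With TRAIL they were -0.96, -0.67 and -1.69, the last placing ID3 at number 315 from the bottom among all genes in VA-ES-BJ. The direction held under every scaling tried, where the mean change against untreated cells ran from -1.43 to -0.68.

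ID1 was lower with taurolidine in A-204 and VA-ES-BJ and not in SK-LMS-1. In A-204 its signal was 31743 and 30853 without taurolidine and 18469 and 21549 with it, changes of -0.78 and -0.52. In VA-ES-BJ it was 14400 and 17275 without and 7956 and 6616 with it, changes of -0.85 and -1.38. Neither line had overlapping groups. In SK-LMS-1 the values were 15112 and 16519 without taurolidine and 15735 and 18114 with it, so that the groups overlapped. The small changes of 0.06 and 0.13 there averaged -0.06 after quantile normalisation and -0.43 after scaling to the poly-A controls.

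**Figure D2:**
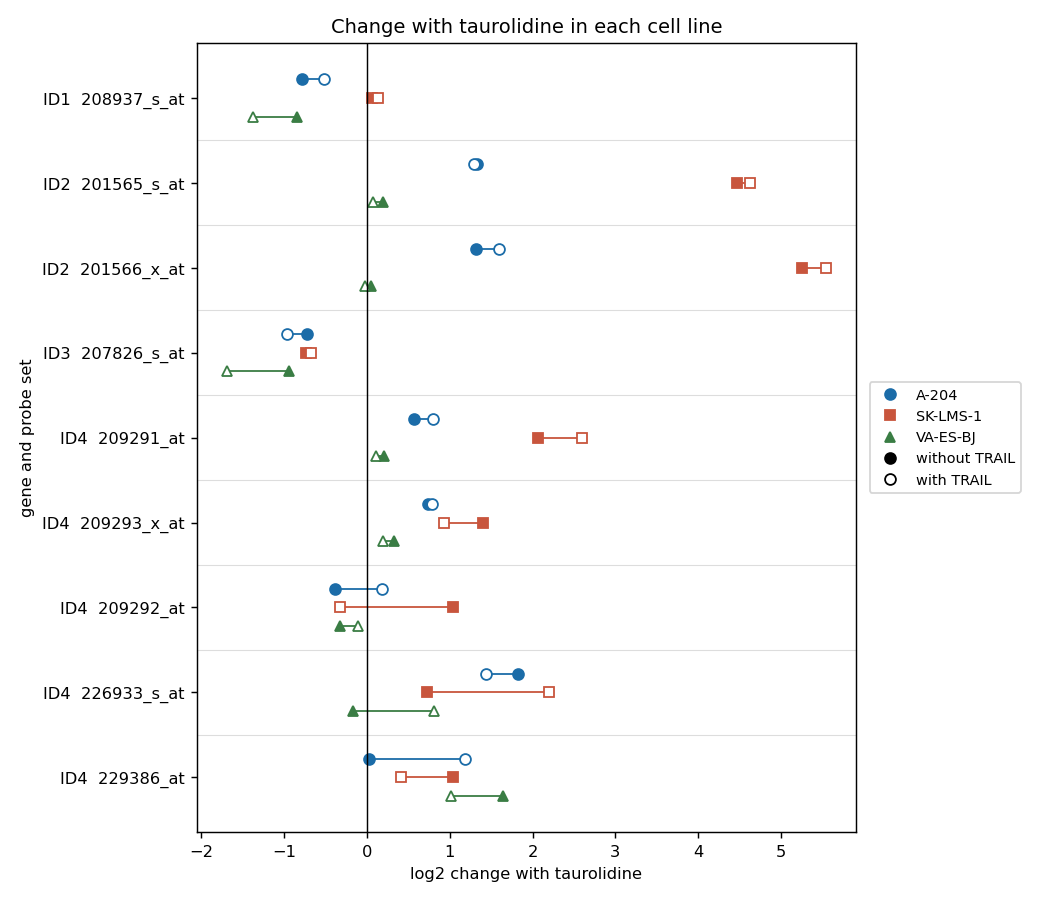
Log2 change with taurolidine for each of the 9 ID probe sets in each cell line (filled, taurolidine against untreated; open, taurolidine plus TRAIL against TRAIL), each point from 1 array against 1. Both ID2 probe sets lie between 4.47 and 5.54 in SK-LMS-1, and the single ID3 probe set is below 0 in every line.

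Averaged over the 3 lines, the change of taurolidine against untreated was 2.0 ± 0.94 (SE) for ID2 and 0.95 ± 0.52 for ID4. It was -0.53 ± 0.28 for ID1 and -0.80 ± 0.19 for ID3. The SEs here and below come from limma's fits to the arrays of all lines, not from the SD between lines of each comparison. In the fit with treatment and cell line as terms, differences between lines in response enter the error. The SD between lines was 2.21 for ID2 and 0.12 for ID3. Among the 4 genes only ID3 passed the threshold in limma's fit over all genes, beside 19.2% of all genes, and it was likewise the only one for taurolidine added to TRAIL (16.2% of genes) and for both agents against untreated (18.8%). In the fit that lets each line have its own response, ID2 was the 1 of 4 past the threshold, where 1.36% of all genes were. The choice of the family used these values, so nothing is read from the counts. With any 1 line left out, 0 of the 4 ID genes passed in the 3 taurolidine comparisons, and without SK-LMS-1 none passed in the fit by line. Without SK-LMS-1 the mean change was 0.77 for ID2 and 0.39 for ID4. Taurolidine arrays lay above all others of their line in all 3 lines for ID2 and ID4, as for 14.1% of genes, and below in all 3 lines for ID3, as for 15% of genes. The comparisons of taurolidine and of both agents with untreated cells share the untreated arrays.

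With TRAIL alone no ID gene passed the threshold, and this comparison was not used in choosing the family. Against untreated cells the mean change was 0.12 ± 0.28 for ID1 (95% interval -0.52 to 0.76), 0.06 ± 0.94 for ID2 (-2.10 to 2.22), 0.20 ± 0.19 for ID3 (-0.23 to 0.63) and -0.40 ± 0.52 for ID4 (-1.59 to 0.79). The adjusted p was 1 for each in limma's fit, in which no gene of the 14221 passed (0%), with 566 at an unadjusted p under 0.05. In this fit differences between lines in the taurolidine response enter the error. With those differences fitted, a model chosen after the data were seen gave TRAIL effects of 0.08 ± 0.08 for ID1 (-0.12 to 0.29), 0.06 ± 0.06 for ID2 (-0.08 to 0.19), 0.05 ± 0.11 for ID3 (-0.22 to 0.31) and -0.29 ± 0.17 for ID4 (-0.70 to 0.13). No gene passed there either, with 535 at an unadjusted p under 0.05, and the adjusted p of the ID genes in that limma fit ran from 0.98 to 0.99.

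Within lines, the TRAIL arrays of ID2 differed from untreated by 0.11 for A-204, -0.11 for SK-LMS-1 and 0.17 for VA-ES-BJ. The largest single values were those of ID4 in SK-LMS-1, where the signal was 130 untreated and 54.5 with TRAIL (-1.10), and of ID3 in VA-ES-BJ, 17538 and 26649 (0.60). With taurolidine present the corresponding differences were -0.57 and -0.15. Both ID4 signals lay under the table median. Between the same arrays 226933_s_at was lower with TRAIL as well (-1.11). The remaining ID4 probe sets differed the other way (0.78 for 209293_x_at, 0.73 for 209292_at and 0.67 for 229386_at). The test of whether the TRAIL effect differed between lines gave an adjusted p of 0.90 for ID4 and 0.99 for the other ID genes in limma's fit, with no gene past the threshold (0%) and 722 at an unadjusted p under 0.05.

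For TRAIL added to taurolidine the mean change was 0.05 ± 0.28 for ID1, 0.05 ± 0.94 for ID2, -0.11 ± 0.19 for ID3 and -0.18 ± 0.52 for ID4, and none passed the threshold. For ID2 the 3 lines lay at 0.07, 0.05 and 0.04. By the probe set that stands for the gene, the combination thus had the ID2 signal of taurolidine alone within 1.05-fold in each line. By 201566_x_at the difference was 1.05-fold for A-204, 1.17-fold for SK-LMS-1 and 1.02-fold for VA-ES-BJ. By the probe set shared with ID2B it was 1.74-fold, 1.27-fold and 2.17-fold in that order. The departure of the combination from the sum of both agents was -0.06 ± 0.39 for ID1, -0.01 ± 1.33 for ID2, -0.31 ± 0.26 for ID3 and 0.22 ± 0.73 for ID4. For ID3 the lines gave -0.24, 0.06 and -0.75, the last from the high TRAIL array of VA-ES-BJ. Both comparisons had adjusted p of 1 for each ID gene in limma's fit and 0% of genes past the threshold, with 376 and 540 genes at an unadjusted p under 0.05.

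**Figure D3:**
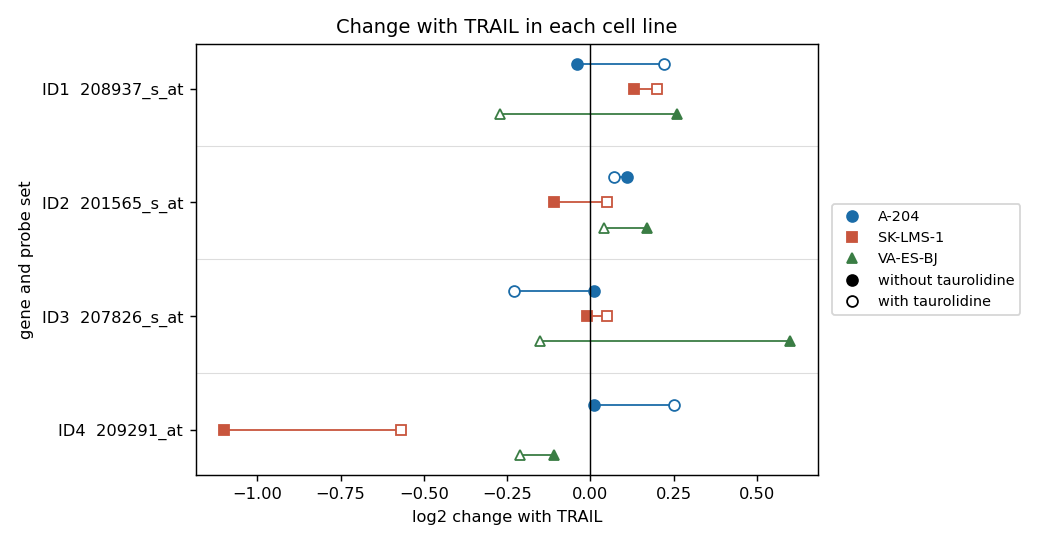
Log2 change with TRAIL for the probe set that stands for each ID gene in each cell line (filled, TRAIL against untreated; open, both agents against taurolidine), each point from 1 array against 1. ID2 lies between -0.11 and 0.17 in every line, and the point farthest from 0 is ID4 in SK-LMS-1 at -1.10.

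After the mean of each line was removed, ID2 and ID4 varied together over the 12 arrays (Pearson r 0.94), as did ID1 and ID3 (0.85). ID2 with ID3 gave -0.53, ID3 with ID4 -0.54, ID1 with ID2 -0.09 and ID1 with ID4 -0.14. These values describe arrays that share lines and treatments and carry no test. Among 7994 genes with an SD of at least 0.25 on that scale, those most like ID2 were SAT1, which acetylates spermidine and spermine (r 0.983), NT5M, a mitochondrial deoxyribonucleotidase (0.982), COXFA4L3 (0.972), CXCL3, a chemokine (0.968), and ADM, the precursor of adrenomedullin (0.968). SAT1 had signals of 19137 in untreated A-204, 1892 for SK-LMS-1 and 16641 for VA-ES-BJ, and its changes with taurolidine were 0.79, 2.51 and 0.70. SK-LMS-1, the line lowest for ID2, was also the lowest untreated line for SAT1, NT5M, COXFA4L3 and ADM, and not for CXCL3, which was lowest in A-204 at 77.7. That CXCL3 signal and those of NT5M (13.9) and COXFA4L3 (10.3) in untreated SK-LMS-1 lay under the table median. The measure of likeness does not see these baselines, since line means were removed.

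For the other members the closest patterns were those of SNN (0.983), RALGDS, which activates Ral proteins (0.962), and ZNF596 (0.956) for ID1. The taurolidine differences of SNN were -0.86 for A-204, 0.17 for SK-LMS-1 and -1.46 for VA-ES-BJ. RNF34, a ubiquitin ligase (0.992), PNRC2 (0.982) and MB21D2 (0.981) were most like ID3, and RNF34 was lower in every line (-0.42, -0.48 and -0.55), although 1 of its 2 other tested probe sets was on average 0.20 higher. CD74, the invariant chain of class II antigen presentation (0.979), LOC730098 (0.971) and MRPS18A, a mitochondrial ribosomal protein (0.955), were most like ID4, and CD74 differed by 0.45, 1.10 and 0.03. CD74 and LOC730098 lay under the table median in untreated SK-LMS-1 (45.1 and 110).

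The genes around the ID family were described from 12 lists holding 114 genes, 88 of them tested. Against untreated cells taurolidine raised 6 and lowered 14, or 22.7% past the threshold in limma's fit, beside 19.2% of all genes (7.73% raised and 11.5% lowered), so as a whole they moved about as often as any gene. Their median change was -0.11 and that of all genes 0. None of the 20 stayed past the threshold in each of the 3 fits that leave out a line, and 13 passed in none of those.

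The E proteins, with which ID proteins pair, moved little with the values as deposited. None of TCF3, TCF4 and TCF12 passed the threshold (0 of 3, median -0.08), with TCF4 at -0.24 ± 0.15 and TCF3 at 0.16 ± 0.10. With scaling to the poly-A controls, which moved the median of all genes to -0.62, all 3 passed as lower (-0.47 for TCF3, -0.86 for TCF4 and -0.72 for TCF12). Of the tissue-restricted factors 10 of 23 were tested and only ATOH8 fell (-1.06 ± 0.26, adjusted p = 0.029, limma), beside 11.5% of all genes lowered. HES1, a Notch target and repressor of the same helix-loop-helix class, rose by 2.82 ± 0.59 (adjusted p = 0.016), and the other 8 tested HES and HEY genes did not pass. In SK-LMS-1 the signal of HES1 was 186 untreated and 3948 with taurolidine, in A-204 699 and 3134, and in VA-ES-BJ 885 and 3537. As with ID2, the line lowest at the start had the largest change (4.32, against 2.15 and 1.98).

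In the BMP pathway, beside 11.5% of all genes lowered, 2 of 9 tested ligands fell, GDF5 (-0.52 ± 0.13, adjusted p = 0.032) and GDF7 (-1.0 ± 0.28, adjusted p = 0.042, with signals of at most 209), and neither passed for taurolidine added to TRAIL or for both agents against untreated. Quantile normalisation left 0 ligand calls, and equal array medians left 0 SMAD calls. Of 8 receptors and co-receptors 3 fell, RGMB (-1.46 ± 0.19, adjusted p = 0.0032), BMPR2, the type II receptor (-0.55 ± 0.14, adjusted p = 0.031), and ACVR2A (-0.48 ± 0.13, adjusted p = 0.042), all by limma. The median of these receptors was -0.62. Of the 6 signal-transducing SMADs, SMAD3 (-0.59 ± 0.14, adjusted p = 0.022) and SMAD4, the shared partner (-0.48 ± 0.11, adjusted p = 0.019), fell, while the BMP-specific SMAD1, SMAD5 and SMAD9 stood at -0.17, -0.21 and -0.56 without passing. Other tested probe sets of some of these genes went the other way, 1 of 5 for BMPR2, 1 of 3 for RGMB and 2 of 3 for SMAD4.

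SMAD7, an inhibitory SMAD that is itself a target of the pathway, had the largest fall of the lists, -2.48 ± 0.41 (adjusted p = 0.0072, limma). Its signal went from 1814 to 129 in VA-ES-BJ, from 926 to 222 in SK-LMS-1 and from 121 to 27.9 in A-204. It was the only 1 of 11 tested inhibitors to pass, beside 19.2% of all genes, and SMAD6 stood at -1.20 ± 0.38 with an adjusted p of 0.062. Of 11 tested other BMP targets MSX1, a homeobox factor, rose (0.65 ± 0.12, adjusted p = 0.012), and SMAD7 and ATOH8 fell. ID3 was lower, as SMAD7 was, in each line, and ID1 in A-204 and VA-ES-BJ. In A-204 SMAD7 was under the table median already when untreated. ID2, named with ID1 and ID3 as a BMP target, was higher in A-204 and SK-LMS-1. A link of these changes with BMP signals was not tested.

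Among known regulators of ID transcription, ATF3, a stress-induced repressor, rose by 3.34 ± 0.45 (adjusted p = 0.0035, limma), EGR1, an immediate early factor, rose by 1.32 ± 0.25 (adjusted p = 0.012), and MYC fell by 1.07 ± 0.24 (adjusted p = 0.021), out of 6 tested. Over all genes 19.2% passed, and nothing is read from the count for so short a list. ATF3 had signals of 250 in untreated SK-LMS-1 and 6311 with taurolidine, 845 and 3922 in A-204, and 873 and 8347 in VA-ES-BJ. EGR1 went from 5368 to 17050 in SK-LMS-1, from 3626 to 11926 in A-204 and from 3905 to 5872 in VA-ES-BJ. VA-ES-BJ had the smallest EGR1 change of the lines (0.59), as it had for ID2, but not the smallest ATF3 change (3.24, against 2.20 in A-204). The EGR1 changes of A-204 (1.71) and SK-LMS-1 (1.67) were nearly alike, whereas those of ID2 were 1.33 and 4.47. A link of these regulators with the ID changes was not tested.

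Among genes acting on or below ID proteins, 2 of 7 turnover genes, 3 of 9 partners of the RB and ETS families and 1 of 5 inhibitors of cyclin-dependent kinases passed, beside 19.2% of all genes. Of the turnover genes WDR48, the cofactor of the deubiquitinase USP1, fell (-0.35 ± 0.10, adjusted p = 0.047), as did DYRK1A, a kinase (-1.68 ± 0.25, adjusted p = 0.0053), though both other tested probe sets of DYRK1A were higher. USP1, which removes ubiquitin from ID proteins, stood at -0.04 ± 0.12. Of the partners RBL1 (-0.54 ± 0.14, adjusted p = 0.031) and ELK4 (-0.76 ± 0.10, adjusted p = 0.0032) fell, 2 of 3 other ELK4 probe sets being higher. E2F1 rose by 0.61 ± 0.17 (adjusted p = 0.044), a direction that turned to -0.02 with scaling to the poly-A controls. Of the kinase inhibitors, which E proteins are known to drive, CDKN2B rose (1.15 ± 0.30, adjusted p = 0.034). Its signals were under the table median in VA-ES-BJ (2.48 untreated and 9.16 with taurolidine) and in untreated A-204 (85.2), and with no constant or without the filter no gene of this list passed. CDKN1A stood at 0.38 ± 0.24 and CDKN1C at 1.22 ± 0.63 without passing.

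**Figure D4:**
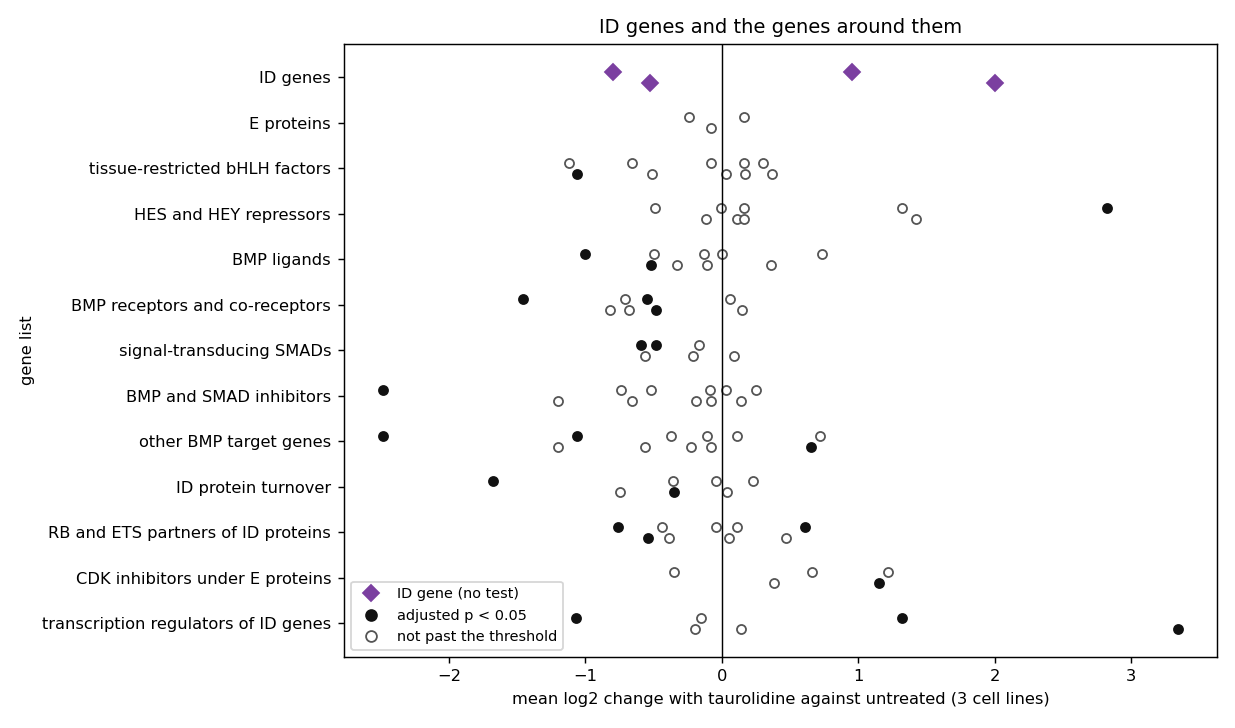
Mean log2 change with taurolidine against untreated over 3 cell lines for the ID genes (diamonds, no test) and the tested genes of the 12 lists (filled, adjusted p under 0.05 in limma's fit; open, not past it), with SMAD7 and ATOH8 drawn in each list that holds them. ATF3 at 3.34 and SMAD7 at -2.48 are the outermost points, and the E proteins lie between -0.24 and 0.16.

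A taurolidine response that differed between lines, as for ID2, was called for 6 of the 88 list genes (6.82%, beside 1.36% of all genes): HES1, GREM1, SMAD7, CDKN1C, EGR1 and CEBPB. The lists were chosen with earlier results of these data known, so nothing is read from the difference of these shares. SMAD7 and EGR1 were close to the threshold, each at an adjusted p of 0.049 (limma's F test). For CDKN1C, an inhibitor of cyclin-dependent kinases, the changes were 0.87 for A-204, 3.08 for SK-LMS-1 and -0.29 for VA-ES-BJ, the order of the lines seen for ID2 (adjusted p = 0.039, limma's F test). GREM1, a secreted BMP antagonist, went from 17583 to 5816 in SK-LMS-1 (-1.59), with an adjusted p of 0.039. In A-204 (8.62 and 37.3) and VA-ES-BJ (59.6 and 18.5) it lay under the table median without and with taurolidine, so the call compares SK-LMS-1 with lines near background. CEBPB had -0.69 for A-204, 0.73 for SK-LMS-1 and 0.36 for VA-ES-BJ (adjusted p = 0.034). With A-204, SK-LMS-1 or VA-ES-BJ left out, the test between the remaining lines called 1, 0 and 4 of all genes.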

How the data were processed

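Total RNA of 12 cell line samples was labelled by the Affymetrix 3' in vitro transcription procedure, per the labels' protocols. The deposited values are intensity on a linear scale, named MAS5 per the submitters' processing notes; its version, scaling target and detection calls: not given in the sources used here. The mean without the lowest and highest 2% was 1000.1 to 1000.2 on each array, so a change in total messenger RNA per cell is not visible.

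Of 54675 probe sets, the platform annotation gave 41097 a single gene, 1801 several and 11777 none listed, and 62 controls were left out. Probe sets above 136.5 on at least 3 arrays were kept (32421), and the one with the highest mean log2 value stood for each of 14221 genes. Values entered as log2(value + 11.8), 11.8 being the 10th percentile of the table, so changes of dim genes are understated.

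limma 3.58.1 in R 4.3.3 was fitted to all 12 arrays with treatment and cell line as terms (6 residual and 1.99 prior degrees of freedom), and p-values were adjusted over all genes (Benjamini-Hochberg, threshold 0.05). F tests of line by taurolidine (5 residual degrees of freedom) and line by TRAIL (3) asked whether responses differed between lines. Their error came from the differently treated single arrays within lines, not from replicate lines or cultures. In the other tests lines were the replicates and paired the arrays, as the labels name them. Deviations from treatment means correlated at 0.852 to 0.904 for arrays of 1 line and, partly by construction, at -0.534 to -0.386 for arrays of different lines. The labels do not say whether arrays of a line came from separate cultures, so the p-values cover only how far these arrays spread, which may be technical, and 12 arrays limit the precision. The procedure was tested on simulated data.

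The members, gene lists and tests were chosen with earlier results of these data known. Named are all ID probe sets, up to 4 genes of each list, passing ones first and then by size of change, and the genes most like each ID gene after removal of line means (5 for ID2, 3 for the others). All 4 ID genes matched an entry of the RefSeq promoter table. Alternatives changed the constant, filter, scaling, probe set choice, error model, cell line term and samples.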

Additional observations from a re-analysis of the deposited data

Results flagged for a closer look

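The taurolidine changes of ID1 differed in sign between lines, although its arrays with and without taurolidine overlapped in SK-LMS-1. The mean of its changes with and without TRAIL was -0.65 for A-204 and -1.12 for VA-ES-BJ, with both comparisons of each line below 0, and 0.10 in SK-LMS-1, with both above 0. In the fit by line, which used the values that chose the family, ID1 did not pass the threshold, and the difference was not tested on other data. The SK-LMS-1 value turned to -0.06 with quantile normalisation and to -0.43 with scaling to the poly-A controls.

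The probe set annotated to both ID2 and ID2B was used in no comparison between groups, and it too was higher with taurolidine. Its lowest taurolidine signal was 618 for A-204 and 856 for SK-LMS-1, against at most 256 and 82.8 on the arrays of those lines without taurolidine. In VA-ES-BJ the signals overlapped, at 497 and 399 without taurolidine and 283 and 629 with it.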

How the results depend on the processing

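Directions of the mean taurolidine changes held for all 4 ID genes under every alternative run: from 0.77 to 2.90 for ID2, 0.33 to 1.32 for ID4, -1.16 to -0.36 for ID1 and -1.43 to -0.68 for ID3 against untreated cells, with the lowest ID2 value when SK-LMS-1 was left out. For a given probe set the mean change stays the same under another filter, cell line term, set of arrays or error model. Only the constant, the scaling, the mean of a gene's probe sets and the lines left out could move it. Calls did not hold. The ID genes past the threshold in the 3 taurolidine comparisons, 1 each as reported, came to 2 each with scaling to the poly-A controls, 0 each with only the arrays compared, 0 each without the cell line term (no replicate block), and 0 each with any line left out. For the taurolidine response by line, 1 as reported became 2 when a signal above the median was required on all 12 arrays (ID4 then is not tested), 3 with an intensity trend in limma, and 0 to 1 with a line left out. Over all genes, 2729 calls of taurolidine against untreated became 143 without the cell line block, 0 with only the arrays compared, 1650 without the filter, 4402 with every probe set by itself, 8061 with scaling to the poly-A controls and 354 to 415 with a line left out; the 193 calls by line ranged from 52 to 1040 before lines were left out. The share of higher genes among those calls was 40.3% (1099 of 2729), 52% with quantile normalisation, 62% with equal medians and 0.471% with scaling to the poly-A controls, under which the median of all genes moved to -0.62 (0.11 with equal medians).

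In single lines, quantile normalisation turned ID1 in SK-LMS-1 to -0.06 and ID2 in VA-ES-BJ to -0.04, and scaling to the poly-A controls gave -0.43, -0.40, and for ID4 -0.04 (A-204) and -0.37 (VA-ES-BJ). No ID gene passed in a TRAIL comparison under any alternative, but small values changed sign. ID2 with TRAIL against untreated went to -0.07 with quantile normalisation and to -0.01 with the mean of its probe sets, and ID3 to 0.00 without VA-ES-BJ (0.00 to 0.31 over the lines left out). For TRAIL added to taurolidine, ID1 and ID2 went to -0.02 with equal medians, ID3 to 0.07 and ID4 to 0.00 with poly-A scaling, ID4 to 0.07 with the mean of its probe sets, and with a line left out ID1 ran from -0.03 (without A-204) to 0.21 and ID4 from -0.39 to 0.02 (without SK-LMS-1). The departure from additivity of ID2 went to 0.11 (quantile), 0.08 (poly-A controls and mean of probe sets), and ran from -0.09 to 0.05 with a line left out, and that of ID1 to 0.02 (poly-A controls), with -0.23 to 0.17 over the lines left out. The cause of these changes was not tested. Fits without the line term or with only the arrays compared were not run for the tests between lines, which need every line and array.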
